A study of Homo sapiens with 9 samples.

Results

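The genes that set both drug-resistant derivatives of the HCC line MHCC97L apart from parental MHCC97L were examined. A gene was called separated when its CPM (its read count scaled to the total counted reads of the library) in all 6 libraries of the resistant lines lay above, or in all 6 lay below, its CPM in all 3 parental libraries. Of the 20030 genes listed, 2458 were separated, 1678 above and 780 below. The count test covered 12232 genes with enough reads, among them 2332 separated genes, 1639 above and 693 below. The other 126 separated genes, 39 above and 87 below, had too few reads for the test.

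MHCC97L is a human hepatocellular carcinoma (HCC) cell line. MHCC97L-Src is its derivative with stable resistance to 4 μmol/L saracatinib, an inhibitor of SRC family kinases. MHCC97L-Oxa is its derivative with stable resistance to 2 μmol/L oxaliplatin, a platinum drug that crosslinks DNA. All cells were grown in DMEM with fetal bovine serum, and mRNA was sequenced in 3 libraries per line. The labels give the treatment as none for MHCC97L, saracatinib for MHCC97L-Src and oxaliplatin for MHCC97L-Oxa. Each resistant state is represented by 1 derived line. A difference shared by both may stem from resistance, from exposure to a drug or from the handling common to both derivations. These cannot be told apart. The study describes its comparison of MHCC97L-Src with MHCC97L as made in independent experiments, but neither it nor the labels say which libraries came from separate cultures. P-values measure the spread between these libraries, which may be technical.

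Drug-resistant cancer cells are known to differ from their parents in membrane transport, in detoxification through glutathione and thioredoxin, in responses to inflammatory ligands and low oxygen, and in differentiation. ABC transporters move lipids or drugs across membranes with the energy of ATP. NRF2 is a transcription factor that drives genes of glutathione and thioredoxin metabolism and of drug conjugation when cells meet electrophiles or oxidants. The results are ordered by such roles, first for genes higher and then for genes lower in both resistant lines.

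Each library held 16970486 to 18209213 reads assigned to genes, and a floor of 3 counts corresponded to 0.165 to 0.177 CPM. This floor covers counting error only. MHCC97L replicate 1 stood apart: it lay at -138 on the first principal component, MHCC97L replicates 2 and 3 at 11.6 and -48.3, and the 6 resistant libraries between 9.97 and 61.0. GC content and length of the genes accounted for 66.1% of the variance of its deviation from the mean library, against 3.63% to 47.4% in the other 8. Results are therefore also given after a correction for GC content and length. Of 22 genes of hepatocyte identity, 9, including ALB, AFP, TTR and APOB, had no read in any library and only 3 had enough reads for the test, so the defining markers of the labelled liver origin were not detected at this depth. KRT8, a keratin of simple epithelia, was at 1611 to 3855 CPM in the 9 libraries, and VIM, a mesenchymal filament protein, at 707 to 1639 CPM. Of 14 epithelial genes 8 had enough reads for the test, while EPCAM and CLDN3 had 6 and 1 reads over all libraries. Of 8 fibroblast markers 5 had enough reads. COL1A1 was at 60.2 to 83.2 CPM and DCN at 9.6 to 128 CPM, whereas COL1A2 and PDGFRA had 2 and 1 reads over all libraries. Of 8 leukocyte and 8 endothelial markers 5 each had a read. PTPRC, CD3E and LYZ and KDR, CLDN5 and EMCN had none in any library, whereas CD68 was at 48.8 to 146 CPM and the endothelial cadherin CDH5 at 0.394 to 13.4 CPM.

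By edgeR's quasi-likelihood test with equal weight for each resistant line, 1070 genes were higher (8.75% of the tested genes) and 2269 were lower (18.5%) in the resistant lines at an adjusted p under 0.05. Higher genes thus made up 32.0% of all calls. The test sets the mean of both resistant lines against the parental line, so a call does not require a change in each line. After correction for GC content and length, 1334 of 12126 genes were higher (11%) and 1837 lower (15.1%), and higher genes made up 42.1% of the calls. Among all tested genes 13.4% were separated above and 5.67% separated below. Of the 1639 genes separated above, 971 were called higher, and of the 693 separated below, 528 were called lower. Separation and test read the same libraries, so these calls describe the separated genes and lend them no independent support. Over the 12232 tested genes the median log2 fold change was -0.17, and changes are to be read against it. Likewise, counts of called and separated genes in the lists below are to be read against the shares of all tested genes given here.

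The counts depended on single libraries. The 3339 calls became 1793, 5074 and 2980 without MHCC97L replicates 1, 2 and 3. They became 828, 726 and 1527 without MHCC97L-Oxa replicates 1, 2 and 3, and 963, 1114 and 2043 without MHCC97L-Src replicates 1, 2 and 3. The 780 genes separated below became 1660, 3248 and 1494 when MHCC97L replicate 1, 2 or 3 was left out, whereas the 1678 genes separated above rose to at most 2104. Leaving out a library can only relax the rule of separation, so these counts could not fall and only the size of the rise is informative. Genes named below as higher or lower in the resistant lines than in the parental line kept an adjusted p under 0.05 in each of the 9 fits that left out 1 library, except where stated.

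Separated genes differed from the rest in base composition. The median GC content was 57.8% among genes separated above, 47.4% among genes separated below and 49.2% among all tested genes. The median log2 fold change of the genes separated above was 0.78 as fitted and 0.56 after the correction, and that of the genes separated below was -1.22 and -0.76. When separation itself was judged on corrected values, 1221 genes lay above and 1668 below, sharing 959 and 453 genes with the uncorrected sets. With a margin of at least 2-fold between the nearest libraries, 150 genes remained above and 77 below.

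**Figure D1:**
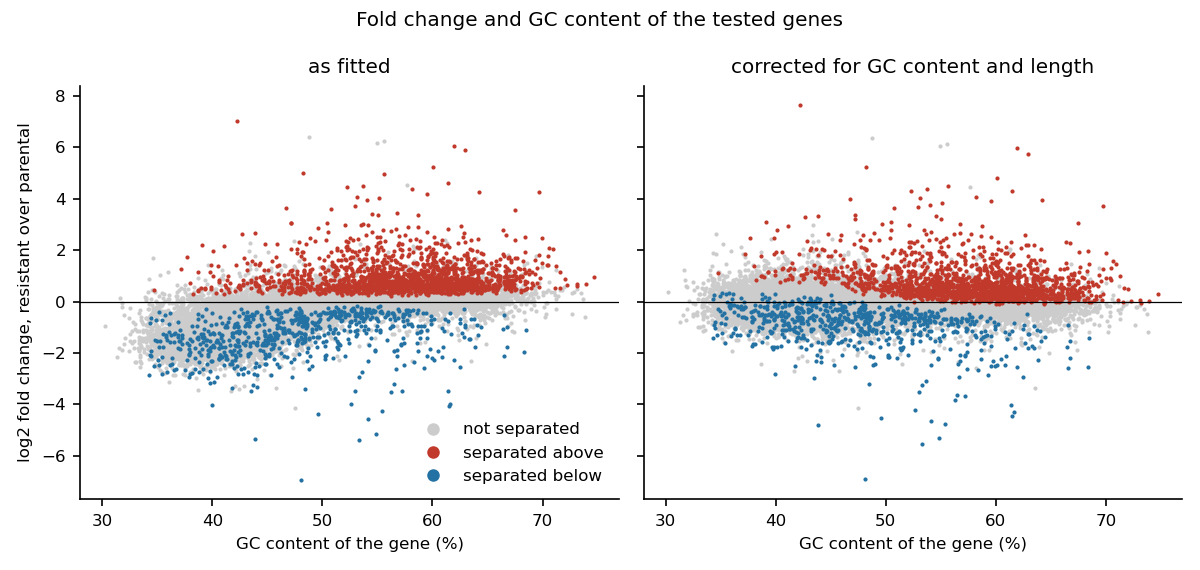
GC content of each tested gene in percent (x axis) against its log2 fold change, resistant lines over parental (y axis), as fitted (left) and after correction for GC content and length (right). Genes separated above are red, genes separated below blue and other genes grey. On the left genes of low GC content lie mostly below 0, and on the right the cloud is centred near 0 while the outermost red and blue genes stay far from 0.

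At the edge of the rule, TNK2, a cytosolic tyrosine kinase, was the nearest gene inside the upper limit, with 80.62 CPM, to the digits given, in both its highest parental and its lowest resistant library. UQCRH, a subunit of respiratory complex III, was the nearest outside, with 312 CPM in both. DCAF1, a ubiquitin ligase receptor, was just outside the lower limit, with 30.48 CPM in both.

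ABCG1, an ABC transporter that exports cholesterol to lipoprotein particles, was among the largest rises. The gene (NCBI gene 9619) lies at chr21:42199689-42297244 on the + strand of GRCh38. It was at 0.793, 1.07 and 1.72 CPM in the parental libraries, at 24.5, 25.4 and 32.9 CPM in MHCC97L-Src and at 25.1, 30.2 and 23.6 CPM in MHCC97L-Oxa. The lowest resistant library was thus far above the highest parental library. In bulk RNA, fewer cells that express a gene and less of its RNA per cell cannot be told apart. ABCG1 rose by 4.51 ± 0.35 (SE, adjusted p = 0.000115), or 22.81-fold, and 4.36 after the GC correction. Between the resistant lines the difference of 0.12 ± 0.30 was not called (adjusted p = 0.999).

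Other genes of cholesterol efflux and of LXR, the oxysterol receptor that induces ABCG1, changed less. Of 15 tested genes of this list, ABCG1 included, 6 rose and 0 fell, and 6 were separated above, with a median log2 fold change of 0.57. The same counts, 6 and 0, were obtained after the GC correction and without MHCC97L replicate 1, while leaving out other libraries gave 3 to 6 rises. NPC2, which hands cholesterol out of lysosomes, was at 163, 204 and 179.7 CPM in the parental libraries and at 321 to 363 CPM in the 6 resistant libraries (log2 fold change 0.97 ± 0.15, adjusted p = 0.00449). PLTP, the phospholipid transfer protein, rose by 1.02 ± 0.23 (adjusted p = 0.0189), a call lost without MHCC97L-Oxa replicate 1 (adjusted p = 0.0519). MYLIP was called higher (1.11 ± 0.35, adjusted p = 0.0414) but was not separated, and its call was lost in 6 of the 9 fits. ABCA1, at no more than 1.25 CPM in any library, was not called (0.57 ± 0.82, adjusted p = 0.616). Neither were APOE and APOC1 (adjusted p = 0.0638 and 0.538).

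**Figure D2:**
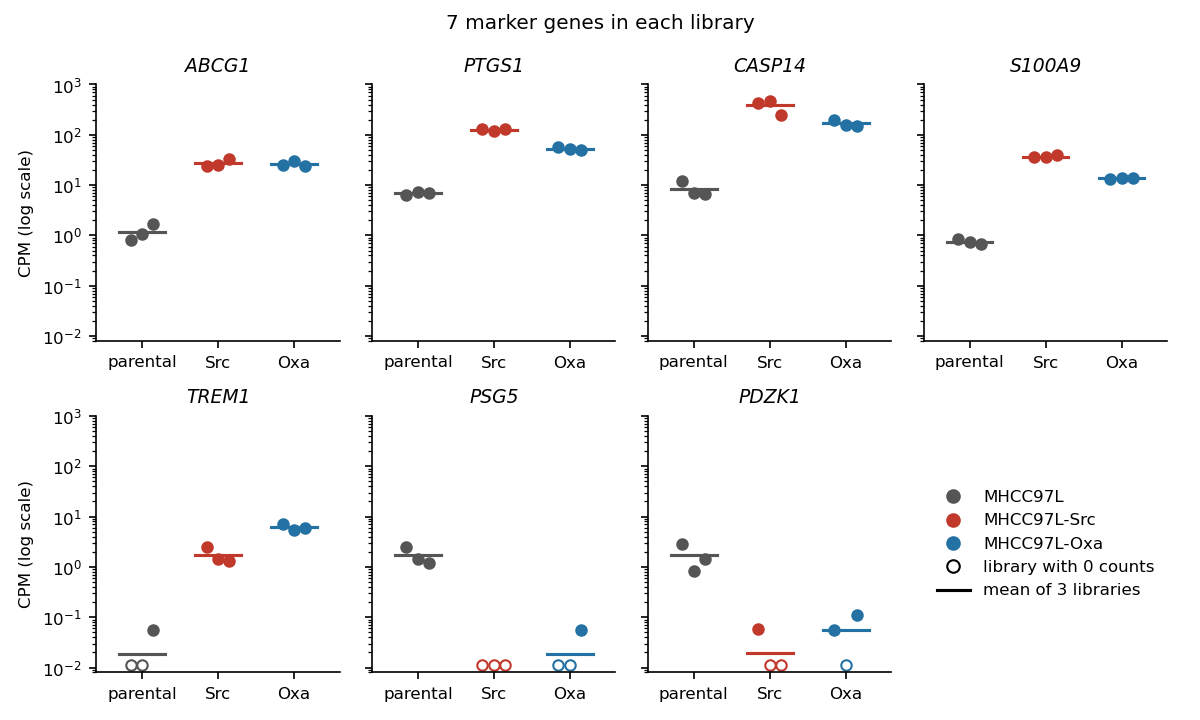
CPM on a log axis (y axis) of 7 genes in each library, by line (x axis). Filled points are libraries, open points at the bottom are libraries with 0 counts, and horizontal lines are means of 3 libraries. For ABCG1, PTGS1, CASP14, S100A9 and TREM1 all 6 resistant libraries lie above the 3 parental libraries, and for PSG5 and PDZK1 all 6 lie below.

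Single genes known from myeloid cells and inflammation were higher in both lines, while the leukocyte and cytokine lists moved in both directions. TREM1, a surface receptor that amplifies inflammatory signals (NCBI gene 54210, chr6:41267926-41286719, - strand), had 0, 0 and 1 counts in the parental libraries. It was at 2.48, 1.47 and 1.31 CPM in MHCC97L-Src and at 7.19, 5.36 and 5.91 CPM in MHCC97L-Oxa. The ratio of the summed counts was 213 (95% exact interval for counting error 38.1 to 8451). TREM1 was therefore nearly undetected in the parental line and low but present in every resistant library.

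S100A9 (NCBI gene 6280, chr1:153357854-153361027, + strand), a subunit of the calcium-binding complex calprotectin, was at 0.85, 0.732 and 0.667 CPM in the parental libraries. It reached 36.2, 35.5 and 39.1 CPM in MHCC97L-Src and 13.1, 13.8 and 14.1 CPM in MHCC97L-Oxa, a log2 fold change of 4.94 ± 0.27 (adjusted p = 1.68e-05). Its level was higher in MHCC97L-Src than in MHCC97L-Oxa by 1.49 ± 0.23 (adjusted p = 0.0199). S100A8, the partner of S100A9 in calprotectin, rose by 3.0 ± 0.45 (adjusted p = 0.00378) from 0.167 to 0.338 CPM in the parental libraries to 1.06 to 3.4 CPM in the resistant libraries. Of 14 tested S100 genes 7 rose, 0 fell and 8 were separated above. After the GC correction 7 were higher and 3 lower, and leaving out single libraries gave 3 to 8 rises.

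TNFRSF1B, the TNF receptor found mainly on immune and endothelial cells, was at 0.963, 0.958 and 0.612 CPM in the parental libraries. In MHCC97L-Src it was at 46.1, 51.9 and 47.9 CPM and in MHCC97L-Oxa at 5.11, 4.69 and 3.88 CPM. The rise of 4.18 ± 0.30 (adjusted p = 0.000104) was shared, but the 2 resistant lines did not overlap. CD14, a co-receptor for lipopolysaccharide, went from 0.906 to 1.11 CPM in the parental libraries to 4.41 to 6.13 CPM in the resistant libraries (2.41 ± 0.31, adjusted p = 0.00185). CSF1R, a growth factor receptor of macrophages, fell by 1.42 ± 0.30 on the log2 scale (adjusted p = 0.0153). It was at 9.63 to 13.1 CPM in the parental libraries, 1.67 to 3.3 CPM in MHCC97L-Src and 7.26 to 7.69 CPM in MHCC97L-Oxa. Taken alone, MHCC97L-Src was called lower (-2.21, adjusted p = 0.00675) and MHCC97L-Oxa was not (-0.64, adjusted p = 0.234). Of 8 leukocyte markers 4 were tested, of which 2 rose and 1 fell, while PTPRC, CD3E and LYZ had no read in any library. Their summed level was 60.2 to 93.7 CPM in the parental line, 80.3 to 99.9 CPM in MHCC97L-Src and 157 to 159.9 CPM in MHCC97L-Oxa, most of it from CD68, a lysosomal protein that was at 48.8 to 79.4, 71.8 to 89.4 and 143 to 146 CPM. The call of CD68 was lost in 5 of the 9 fits without 1 library.

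Genes of antigen presentation rose as well. CD74, the invariant chain of HLA class II, was at 1.13, 1.24 and 1.67 CPM in the parental libraries. It was at 6.29, 9.43 and 5.23 CPM in MHCC97L-Src and at 28.9, 26.4 and 23.5 CPM in MHCC97L-Oxa, a log2 fold change of 3.37 ± 0.36 (adjusted p = 0.000606). HLA-DPB1 had no read in the parental libraries and was at 0 to 0.462 CPM in MHCC97L-Src and 1.21 to 1.86 CPM in MHCC97L-Oxa, so that it was at least 15-fold higher over the 6 resistant libraries, taking 3 counts over the parental line as the floor. Because 1 MHCC97L-Src library held no read, HLA-DPB1 was not separated. Of 8 tested genes of HLA class II 6 rose and 0 fell, 3 were separated above and the median log2 fold change was 2.71. The counts were 6 and 0 after the GC correction and 4 to 6 rises when single libraries were left out. The summed level of the list was 7.19 to 12.3 CPM in the parental line, 28.1 to 41.4 CPM in MHCC97L-Src and 65.3 to 71.1 CPM in MHCC97L-Oxa. Taken alone, MHCC97L-Oxa was called higher for HLA-DPB1 (adjusted p = 0.0188) and MHCC97L-Src was not (adjusted p = 0.0573). Nor was MHCC97L-Src alone called for the chains HLA-DRB1 (adjusted p = 0.0926) and HLA-DRA (adjusted p = 0.121). The call of HLA-DRB1 for the mean was lost in 4 of the 9 fits without 1 library. HLA-DPB1, HLA-DRB1 and HLA-DRA had enough reads for the test only through the MHCC97L-Oxa libraries, so a rise was favoured in advance for them. CIITA, the class II transactivator, was not called (0.53 ± 0.40, adjusted p = 0.326). HLA genes share near-identical stretches and are highly variable, so the counting may have split reads between them.

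HLA-B, a class I chain, was at 137, 198 and 211 CPM in the parental libraries and at 452 to 712 CPM in the resistant libraries (1.66 ± 0.22, adjusted p = 0.00206). OAS1, an interferon-induced antiviral enzyme, rose by 1.94 ± 0.27 (adjusted p = 0.00253). Of 21 tested interferon-stimulated genes 8 rose and 3 fell, 8 being separated above and 0 below. After the GC correction 8 were higher and 1 was lower, and single libraries left out gave 5 to 9 rises and 1 to 4 falls.

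PTGS1, cyclooxygenase 1, which makes the precursor of prostaglandins and thromboxane (NCBI gene 5742, chr9:122370530-122395703, + strand), had closely spaced values within each line. It was at 6.46, 7.38 and 7.06 CPM in the parental libraries, at 132, 119 and 129 CPM in MHCC97L-Src and at 56.5, 52.3 and 49.9 CPM in MHCC97L-Oxa. PTGS1 rose by 3.59 ± 0.18 on the log2 scale (adjusted p = 1.68e-05), or 12.04-fold, and the level in MHCC97L-Src exceeded that in MHCC97L-Oxa by 1.32 ± 0.18 (adjusted p = 0.00864). Of 14 tested genes of the prostaglandin pathway 2 rose and 1 fell, against 2 and 4 after the GC correction. The other rise was TBXAS1, thromboxane synthase (1.17 ± 0.28, adjusted p = 0.0211), whose call was lost without any 1 of the MHCC97L-Oxa libraries (adjusted p up to 0.0548).

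CASP14, a caspase of the cornifying epidermis (NCBI gene 23581, chr19:15049384-15058293, + strand), was at 11.9, 6.82 and 6.62 CPM in the parental libraries. In MHCC97L-Src it was at 429, 470.1 and 251 CPM and in MHCC97L-Oxa at 199, 159 and 147 CPM. CASP14 rose by 4.98 ± 0.33 on the log2 scale (adjusted p = 9.6e-05), or 31.61-fold. Of 10 tested caspases 1 rose, namely CASP14, and 2 fell, against 2 higher and 0 lower after the GC correction. Of the falls, CASP2 had an adjusted p of 0.904 after the correction and lost its call in 8 of the 9 fits without 1 library. Of 22 genes of the cornified envelope and epidermal differentiation only 3 had enough reads for the test, of which 1, the transglutaminase TGM1, fell (by 1.93 ± 0.36, adjusted p = 0.00931).

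CA9, a membrane carbonic anhydrase induced by low oxygen, was among the largest rises. It was at 6.29, 11.3 and 11.9 CPM in the parental libraries, at 246, 350.1 and 118 CPM in MHCC97L-Src and at 549, 511 and 564 CPM in MHCC97L-Oxa. CA9 rose by 5.23 ± 0.45 on the log2 scale (adjusted p = 0.000199), or 37.53-fold. EGLN3, a prolyl hydroxylase that is itself induced by low oxygen, rose by 2.34 ± 0.29 (adjusted p = 0.0014), and BNIP3, a mitochondrial protein of mitophagy, by 1.63 ± 0.18 (adjusted p = 0.000729). Of 18 tested genes of hypoxia and glycolysis 7 rose and 1 fell, with the same numbers separated above and below. The correction gave 8 and 2, the fit without MHCC97L replicate 1 gave 9 and 1, and other libraries left out gave no fewer than 5 rises.

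Other large rises concerned secretion, signalling and transport. CHGB, a protein of secretory granules, was at 0.0556 to 0.227 CPM in the parental libraries and at 1.24 to 8.13 CPM in the resistant libraries (4.44 ± 0.60, adjusted p = 0.00228). NTSR1, a receptor for the peptide neurotensin, was at 0.222 to 0.282 CPM and at 2.42 to 7.85 CPM (4.25 ± 0.40, adjusted p = 0.000315). SLC43A1, an amino acid transporter, rose by 4.38 ± 0.61 (adjusted p = 0.00259) and SEMA5B, a semaphorin of axon guidance, by 4.61 ± 0.80 (adjusted p = 0.00739), both from at most 5 reads in any parental library. All 5 parental reads of SEMA5B came from MHCC97L replicate 1. LOC101927503 is an uncharacterized gene and is described with the differences between the resistant lines.

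The separated genes with the most reads rose less. PSAP, the precursor of lysosomal saposins, was at 1297, 1885 and 1933 CPM in the parental libraries, at 4016 to 4382 CPM in MHCC97L-Src and at 2788 to 2904 CPM in MHCC97L-Oxa (1.06 ± 0.20, adjusted p = 0.00948). RPL3, a ribosomal protein, rose by 0.90 ± 0.19 (adjusted p = 0.0162). EEF2, an elongation factor, rose by 0.92 ± 0.22 (adjusted p = 0.0211), but its call was lost without MHCC97L-Oxa replicate 1 or 2 or MHCC97L-Src replicate 1 or 2 (adjusted p up to 0.0547). Of 22 ribosomal protein genes 8 were called higher, 0 lower, and 18 were separated above. After the correction 12 were higher, and single libraries left out gave 1 to 15, so the count rested on single libraries.

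Genes of the placenta were among the falls. PSG5, a pregnancy-specific glycoprotein (NCBI gene 5673, chr19:43166256-43186536, - strand), was at 2.44, 1.46 and 1.22 CPM in the parental libraries. It had no read in the 3 MHCC97L-Src libraries and 1 read in 1 of the MHCC97L-Oxa libraries. The summed parental counts exceeded those of the resistant lines by a ratio of 180.3 (95% exact interval 31.6 to 7199.7). PSG4 went from 16.1, 3.61 and 6.84 CPM to 0.227 to 0.659 CPM (fell by 4.26 ± 0.45 on the log2 scale, adjusted p = 0.000606), and ALPP, placental alkaline phosphatase, from 23.5, 34.8 and 49.2 CPM to 1.41 to 3.54 CPM (fell by 3.99 ± 0.31, adjusted p = 0.000115). These were the 3 tested genes of 15 in the list, and all 3 were separated below and called lower as fitted, after the GC correction and without each single library. However, PSG5 and PSG4 had enough reads for the test only through the parental libraries, so a fall was favoured in advance for them. The list count therefore lends no support beyond the single genes. PSG genes are near-identical copies, so reads may have been split among them.

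PDZK1, a scaffold protein of the apical membrane that holds transporters (NCBI gene 5174, chr1:145670852-145708148, - strand), was at 2.89, 0.845 and 1.45 CPM in the parental libraries. The 6 resistant libraries held 0 to 2 reads each. The log2 fold change was -5.34 ± 0.68 (adjusted p = 0.00176). SLC12A3, the thiazide-sensitive sodium chloride cotransporter, fell by 4.57 ± 0.69 (adjusted p = 0.00374) to at most 0.173 CPM. ABCC2, a transporter that exports conjugated drugs and bilirubin, went from 224, 33.7 and 61.9 CPM to 12.1 to 24.6 CPM (fell by 2.41 ± 0.44, adjusted p = 0.00844). The change in ABCC2 was -1.54 after the GC correction and -1.31 without MHCC97L replicate 1. Of 10 tested genes of PDZ scaffolds and their partners 5 fell and 1 rose. Among the falls, PDZK1 and SLC12A3 had enough reads for the test only through the parental libraries. The rise, PDZK1IP1, was not called after the GC correction (adjusted p = 0.0833), where 7 genes were lower, and its call was lost in 7 of the 9 fits without 1 library.

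Genes of metabolism and of the cytoskeleton completed the largest falls. HKDC1, a hexokinase, was at 2.15, 1.75 and 1.67 CPM in the parental libraries, had no read in MHCC97L-Src and was at 0.494, 0.167 and 0.113 CPM in MHCC97L-Oxa. It was at least 32.1-fold lower in MHCC97L-Src, with 3 counts over that line as the floor, and the common change was -5.40 ± 0.64 (adjusted p = 0.00249). KANK4, which restrains actin fibre formation, was at 15.5, 13.6 and 11.2 CPM in the parental libraries and at 0 to 1.59 CPM in the resistant libraries (fell by 5.14 ± 0.45, adjusted p = 0.000199). ACTG2, smooth muscle actin, fell by 4.00 ± 0.52 (adjusted p = 0.00188) and ANKRD2, a protein of stretched muscle, by 4.06 ± 0.57 (adjusted p = 0.00271). OLR1, a scavenger receptor for oxidized LDL, went from 247, 26.8 and 49.5 CPM to 1.47 to 16.1 CPM. Its log2 fold change was -4.02 ± 0.55 as fitted, -2.80 after the correction and -2.59 without MHCC97L replicate 1. HRASLS2, a phospholipid-metabolizing enzyme, fell by 4.38 ± 0.66 (adjusted p = 0.00353).

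With more reads, KRT7, a keratin of ducts and glands, was at 2101, 3338 and 3789 CPM in the parental libraries, at 729 to 943 CPM in MHCC97L-Src and at 1563 to 1866 CPM in MHCC97L-Oxa (fell by 1.37 ± 0.22, adjusted p = 0.00514). ANXA2, an annexin of the membrane cytoskeleton, was at 2222, 1491 and 1045 CPM and then at 340.1 to 895 CPM (fell by 1.21 ± 0.23, adjusted p = 0.00963, and -0.67 after the GC correction). DKK1, a secreted antagonist of Wnt signalling, was at 71.3, 38.8 and 29.8 CPM in the parental libraries, at 1.18 to 2.39 CPM in MHCC97L-Src and at 7.37 to 9.83 CPM in MHCC97L-Oxa (fell by 3.48 ± 0.29, adjusted p = 0.000199). Of 22 tested Wnt ligands, antagonists and feedback targets 5 rose and 5 fell, against 3 and 4 after the GC correction. NKD2, an antagonist of the pathway that acts inside the cell, moved the other way from DKK1 and rose by 1.70 ± 0.28 (adjusted p = 0.00571).

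Of the lists examined, that of NRF2 targets had the most falls. Of its 16 tested genes 12 fell and 0 rose, 9 were separated below and the median log2 fold change was -1.23. After the GC correction 11 were lower and 0 higher, with a median of -0.78, and without MHCC97L replicate 1 the count of falls was 12. Leaving out other libraries gave 6 to 12 falls. TXNRD1, thioredoxin reductase, was at 1128, 206 and 268 CPM in the parental libraries, at 88.7, 51.8 and 183 CPM in MHCC97L-Src and at 85.4, 88.0 and 78.7 CPM in MHCC97L-Oxa. SLC7A11, the cystine importer that feeds glutathione synthesis, was at 77.6, 20.9 and 51.0 CPM, at 5.89, 5.48 and 6.6 CPM and at 5.77, 6.03 and 11.4 CPM. For both genes the 6 resistant libraries lay below all 3 parental libraries, of which MHCC97L replicate 1 was the highest. TXNRD1 fell by 2.41 ± 0.46 (adjusted p = 0.011) and SLC7A11 by 2.80 ± 0.35 (adjusted p = 0.00152). Both remained called after the GC correction, at -1.62 and -1.60, and TXNRD1 stood at -1.30 without MHCC97L replicate 1.

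Other members of the list were mostly named after their values were seen. NQO1, a quinone reductase, was at 578, 704 and 631 CPM in the parental libraries and at 239 to 416 CPM in the resistant libraries (fell by 1.00 ± 0.15, adjusted p = 0.00316). GCLC and GCLM, the catalytic and modifier subunits of glutamate cysteine ligase, fell by 1.87 ± 0.46 and 1.66 ± 0.35 (adjusted p = 0.0218 and 0.0157), and the GCLC call was lost in 5 of the 9 fits without 1 library. Without MHCC97L replicate 1 these changes were -0.79 and -1.05. The aldo-keto reductase AKR1B10 fell by 2.06 ± 0.47 (adjusted p = 0.0192), a call lost without MHCC97L replicate 1 or MHCC97L-Oxa replicate 2 (adjusted p up to 0.0542). AKR1C1 and AKR1C2, near-identical copies whose reads may have been split, ABCC2, SRXN1, OSGIN1 and ME1 were the other genes called lower, and PGD, TALDO1 and HMOX1 were not called (adjusted p = 0.102 to 0.58). Of these other genes the calls of AKR1C2, SRXN1, OSGIN1 and ME1 were lost in 7, 7, 1 and 6 of the 9 fits. The genes called after the GC correction were partly other ones: GCLM, NQO1, AKR1C1, AKR1C2 and ME1 were no longer called (adjusted p = 0.054 to 0.652), and genes such as PGD, TALDO1 and HMOX1 became lower. AKR1C1 also differed between the resistant lines, with MHCC97L-Src minus MHCC97L-Oxa at -1.31 ± 0.22 (adjusted p = 0.0295).

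**Figure D3:**
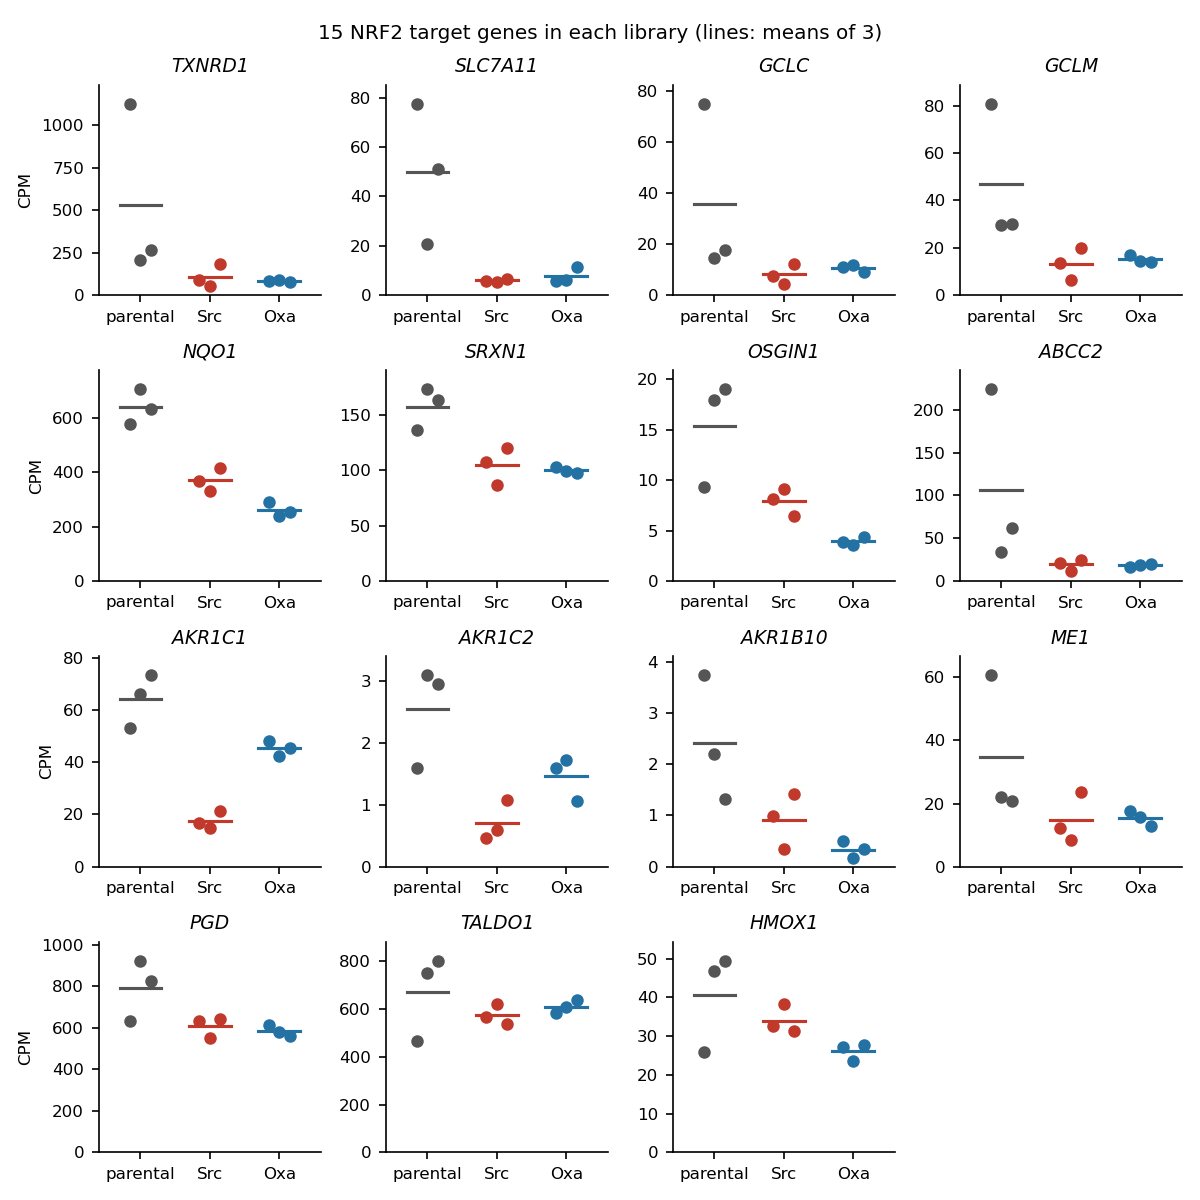
CPM (y axis, from 0) of 15 of the 16 tested NRF2 target genes in each library, by line (x axis). Points are libraries and horizontal lines are means of 3 libraries. In 9 panels, TXNRD1, SLC7A11, GCLC, GCLM, NQO1, SRXN1, OSGIN1, ABCC2 and AKR1C1, all 6 resistant libraries lie below the 3 parental libraries.

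NRF2 binds the antioxidant response element, whose core is TGACNNNGC. This core was searched on both strands in the 250 bases before the first RefSeq start site listed for each gene (build GRCh38.p14). It was present in 4 of the 12 listed NRF2 targets that had such a sequence and in 12.1% of the 9968 tested genes that had one. The 4 upstream sequences that carry it are shown to let the core be seen in its surroundings in the list with the most falls, with the core in capitals. The sequences are those of GCLM (chr1:93909431-93909680, - strand), TXNRD1 (chr12:104215529-104215778, + strand), PGD (chr1:10398814-10399063, + strand) and ME1 (chr6:83431052-83431301, - strand).
GCLM: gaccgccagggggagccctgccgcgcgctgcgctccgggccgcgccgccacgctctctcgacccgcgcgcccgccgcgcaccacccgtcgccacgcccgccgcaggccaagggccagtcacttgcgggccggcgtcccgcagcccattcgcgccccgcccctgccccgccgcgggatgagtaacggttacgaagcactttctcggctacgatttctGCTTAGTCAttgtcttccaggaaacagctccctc
TXNRD1: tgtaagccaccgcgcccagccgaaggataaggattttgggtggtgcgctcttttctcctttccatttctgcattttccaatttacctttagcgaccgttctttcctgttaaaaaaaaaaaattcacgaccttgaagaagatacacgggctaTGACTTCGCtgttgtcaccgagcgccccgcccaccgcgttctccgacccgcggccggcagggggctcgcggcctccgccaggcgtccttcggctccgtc
PGD: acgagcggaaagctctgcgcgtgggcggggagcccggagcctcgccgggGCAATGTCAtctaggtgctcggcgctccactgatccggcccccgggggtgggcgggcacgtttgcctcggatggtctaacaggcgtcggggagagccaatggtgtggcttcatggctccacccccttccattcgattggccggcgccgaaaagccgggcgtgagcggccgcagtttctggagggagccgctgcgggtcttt
ME1: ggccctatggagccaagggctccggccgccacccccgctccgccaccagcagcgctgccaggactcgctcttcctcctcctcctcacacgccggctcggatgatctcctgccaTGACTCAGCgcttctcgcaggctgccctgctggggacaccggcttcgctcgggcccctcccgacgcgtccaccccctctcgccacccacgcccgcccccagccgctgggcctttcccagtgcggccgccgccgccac
In GCLM the first base of the match lies 34 bases before the start site, in TXNRD1 99, in ME1 137 and in PGD 201. As fitted, GCLM, TXNRD1 and ME1 were called lower and PGD was not (log2 fold change -0.38, adjusted p = 0.102). After the GC correction TXNRD1 and PGD were called lower and GCLM and ME1 were not. The core was about as frequent among all separated genes as among tested genes, in 12.4% of 1282 genes above and 12.7% of 575 genes below. A match describes these letters only.

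The rule fixes the direction shared by the resistant lines but not whether they moved equally far. By the contrast of MHCC97L-Src with MHCC97L-Oxa in the same edgeR fit, 86 of 12232 tested genes differed at an adjusted p under 0.05 (0.703%). Of the 2332 separated genes tested, 36 did (1.54%). In 32 of the 36, 14 above and 18 below, MHCC97L-Src lay further from the parental line, and in 4 MHCC97L-Oxa did. The call was held by 33 of 35 after the GC correction, by 36 without MHCC97L replicate 1 and by 36 with DESeq2. Over all separated genes the count of differences was 5, 6 and 5 without MHCC97L-Oxa replicates 1, 2 and 3 and 5, 7 and 7 without MHCC97L-Src replicates 1, 2 and 3. It was 123, 42 and 23 without MHCC97L replicates 1, 2 and 3. Of the differences between the lines named in the text, those of LOC101927503, TNFRSF1B and CDH5, the last of them not separated, were called in each of the 9 fits without 1 library, and that of ID2 in 8. Those of PTGS1, S100A9, CLDN4, SAMD11, DKK1, KANK4, CD74, CYR61 and AKR1C1 were lost without any 1 of the 6 resistant libraries, and that of CTGF without 5 of them.

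**Figure D4:**
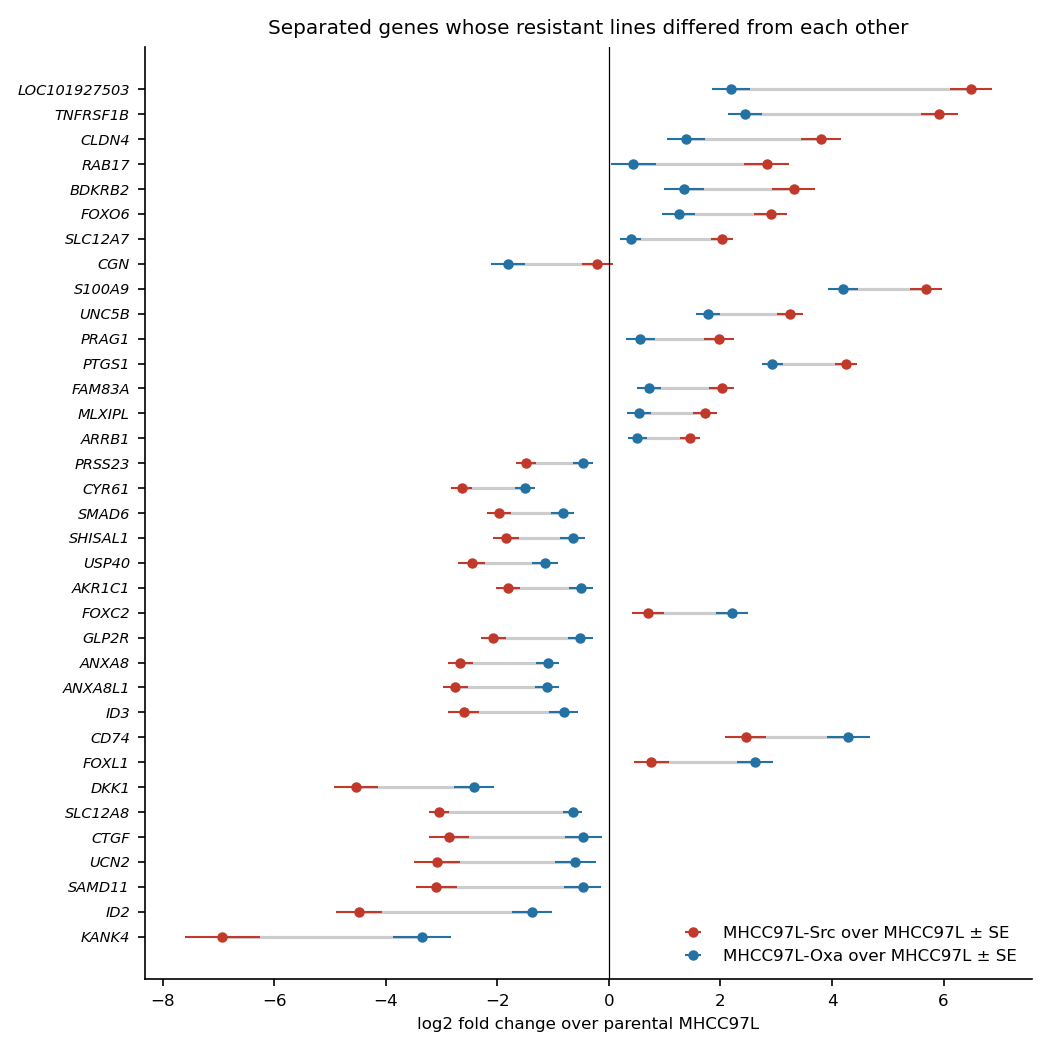
Log2 fold change over parental MHCC97L (x axis) of MHCC97L-Src (red) and MHCC97L-Oxa (blue) for 35 of the 36 separated genes whose resistant lines differed, with bars of 1 SE and grey lines joining the pair. Red lies further from 0 than blue in all but CGN, FOXC2, CD74 and FOXL1.

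The largest such difference was that of LOC101927503, at 0.566, 0.563 and 0.556 CPM in the parental libraries, 45.5, 54.3 and 45.7 CPM in MHCC97L-Src and 2.53, 1.79 and 3.32 CPM in MHCC97L-Oxa. MHCC97L-Src exceeded MHCC97L-Oxa by 4.31 ± 0.33 on the log2 scale (adjusted p = 0.000259). TNFRSF1B differed by 3.48 ± 0.29 (adjusted p = 0.000467). CLDN4, a claudin of tight junctions, was at 1.61 to 2.7 CPM in the parental libraries, at 25.1, 28.9 and 25.6 CPM in MHCC97L-Src and at 4.83, 6.31 and 4.56 CPM in MHCC97L-Oxa, a difference of 2.41 ± 0.34 (adjusted p = 0.0111).

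Among genes lower in both lines, ID2, an inhibitor of helix-loop-helix transcription factors, was at 52.1, 47.9 and 26.7 CPM in the parental libraries. It was at 1.56, 1.00 and 2.90 CPM in MHCC97L-Src and at 17.9, 15.2 and 14.9 CPM in MHCC97L-Oxa, a difference of -3.10 ± 0.40 (adjusted p = 0.00681). SAMD11 was at 8.61, 13.9 and 11.1 CPM, at 1.33, 1.36 and 1.08 CPM and at 8.57, 8.2 and 7.43 CPM, so that MHCC97L-Oxa lay barely below the parental line (difference -2.61 ± 0.36, adjusted p = 0.0108). KANK4 differed by -3.58 ± 0.65 (adjusted p = 0.0438) and DKK1 by -2.11 ± 0.37 (adjusted p = 0.0374). CTGF and CYR61, matricellular proteins named after their values were seen, also were further down in MHCC97L-Src, by -2.40 ± 0.36 (adjusted p = 0.0163) and -1.13 ± 0.18 (adjusted p = 0.023). Against this direction, CD74 was lower in MHCC97L-Src than in MHCC97L-Oxa by -1.83 ± 0.35 (adjusted p = 0.0487).

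Further lists were mixed. Their counts stand beside 8.75% higher and 18.5% lower among all tested genes. Of 14 tested genes of the Notch pathway 5 rose and 0 fell, and 6 were separated above. DLL4, a Notch ligand, was at 0.789 to 1.06 CPM in the parental libraries and at 2.59 to 7.17 CPM in the resistant libraries (2.13 ± 0.33, adjusted p = 0.00425), and single libraries left out gave 1 to 6 rises for the list. Of 16 AP-1 and immediate early factors 3 rose, 0 fell and 6 were separated above, against 4 higher and 3 lower after the GC correction. NR4A2, an orphan nuclear receptor, was among those that rose (2.32 ± 0.37, adjusted p = 0.00485). FOS, a subunit of AP-1, was at 46.3, 51.2 and 52.1 CPM in the parental libraries and at 104 to 141 CPM in the resistant libraries (1.31 ± 0.16, adjusted p = 0.0014). Of 18 p53 targets 4 rose and 3 fell. GDF15, a secreted stress cytokine, was at 12.1, 14.4 and 13.9 CPM in the parental libraries, at 80.2 to 100.1 CPM in MHCC97L-Src and at 46.4 to 51.4 CPM in MHCC97L-Oxa (2.33 ± 0.20, adjusted p = 0.000199). BBC3, a BH3-only protein that promotes apoptosis, rose by 1.81 ± 0.26 (adjusted p = 0.00271). The falls of this list, RRM2B among them, depended on single libraries. Without MHCC97L replicate 1, 1 fall was left, and leaving out each single library gave 0 to 5 falls. The call of RRM2B was lost in 7 of the 9 fits without 1 library.

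Some lists had more falls than genes separated below. Of 19 tested genes of nucleotide excision and crosslink repair 10 fell and 0 rose, but only 1 was separated below. ERCC6, a helicase of transcription-coupled repair, was at 35.9, 5.13 and 12.9 CPM in the parental libraries and at 2.25 to 5.8 CPM in the resistant libraries, which overlap with MHCC97L replicate 2. Its change was -2.17 ± 0.47 (adjusted p = 0.0162), -0.74 after the GC correction (adjusted p = 0.052) and -1.22 without MHCC97L replicate 1. After the GC correction 5 of these genes were lower, and without MHCC97L replicate 1 only 1 was. Of 23 tested cell cycle and replication genes 7 fell and 0 rose, with 1 separated below, against 6 after the correction and 0 without MHCC97L replicate 1. Of 14 mesenchymal genes 3 rose and 5 fell, with 3 separated above and 1 below. The counts were 2 and 5 after the GC correction and 3 and 5 without MHCC97L replicate 1. CDH1, the epithelial cadherin, was low throughout and fell further, from 0.834 to 1.08 CPM to 0.113 to 0.288 CPM (fell by 2.32 ± 0.39, adjusted p = 0.00592), while CLDN7, another claudin, rose by 1.18 ± 0.23 (adjusted p = 0.0122).

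Of the drug-related lists, multidrug efflux transporters had 1 gene separated above and 2 below, of 8 tested. Copper and platinum transport had 2 above and 0 below, of 14. SRC family kinases and CSK had 1 above and 0 below, of 8, and ERBB receptors and ligands 1 and 0, of 10. Among all tested genes 13.4% were separated above and 5.67% below, and 8.75% rose and 18.5% fell. Of 8 tested multidrug efflux transporters 0 rose and 3 fell, ABCC2 among them, against 1 higher and 4 lower after the GC correction. Of 14 genes of copper and platinum transport 2 were called higher and 1 lower for the mean of both resistant lines. Of the 2, MT1X did not rise in both lines and was not separated. Taken alone, MHCC97L-Oxa was called higher for MT1X (1.34, adjusted p = 0.0056) and MHCC97L-Src was not (-0.16, adjusted p = 0.556). The MT1X call for the mean was lost in 6 of the 9 fits without 1 library. MT1F, a metallothionein, went from 2.17 to 2.65 CPM in the parental libraries to 6.23 to 11 CPM in the resistant libraries (1.91 ± 0.29, adjusted p = 0.00353). Of 8 tested SRC family kinases and CSK only FYN rose (1.44 ± 0.22, adjusted p = 0.00446), from 14.7, 10.9 and 8.73 CPM in the parental libraries to 32.4 to 50.2 CPM in MHCC97L-Src and 20.5 to 23.2 CPM in MHCC97L-Oxa. Of 10 ERBB receptors and ligands 3 rose and 0 fell. NRG2, a neuregulin, had no read in the parental libraries and was at least 11.4-fold higher over the 6 resistant libraries, with 3 counts over the parental line as the floor.

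The remaining lists are given by their counts, beside 8.75% higher and 18.5% lower among all tested genes. Of 13 tested genes of TREM1, cytokines and NF-kB feedback 3 rose and 2 fell, with 5 separated above, and without MHCC97L replicate 1 the counts were 2 and 0. The falls were those of BIRC3, an inhibitor of apoptosis, at -2.42 ± 0.63 (adjusted p = 0.0252) and IL6, a proinflammatory cytokine, at -1.07 ± 0.31 (adjusted p = 0.0344). Neither was separated, and their calls were lost in 6 and 7 of the 9 fits without 1 library. Of 9 NFAT factors and targets 2 rose and 2 fell, and of 15 genes of cholesterol synthesis 1 rose and 2 fell. Single libraries left out gave 1 to 2 rises and 0 to 3 falls for NFAT. For cholesterol synthesis they gave 0 to 2 rises and 0 to 4 falls. Of 8 tested epithelial genes 2 rose and 1 fell. Of 5 tested fibroblast markers 3 fell and 0 were separated, and their summed level was 147 to 231 CPM in the parental line, 84.6 to 100 CPM in MHCC97L-Src and 169 to 187 CPM in MHCC97L-Oxa. Neither of 2 tested endothelial markers was called, but CDH5, named after its values were seen, differed between the resistant lines. It was at 0.963, 1.58 and 1.22 CPM in the parental libraries, at 10.8, 11.5 and 13.4 CPM in MHCC97L-Src and at 0.439, 0.67 and 0.394 CPM in MHCC97L-Oxa. It rose by 3.30 ± 0.38 in MHCC97L-Src (adjusted p = 0.000978) and stood at -1.31 ± 0.40 in MHCC97L-Oxa (adjusted p = 0.0878), and the lines differed by 4.61 ± 0.42 (adjusted p = 0.000831). The summed level of the endothelial markers was 2.22 to 2.65 CPM in the parental line, 11.9 to 15.6 CPM in MHCC97L-Src and 1.43 to 1.8 CPM in MHCC97L-Oxa. Of the 3 tested genes of hepatocyte identity 2 rose, SERPINA1, the secreted protease inhibitor alpha-1 antitrypsin, and CEBPA, a liver transcription factor whose call was lost in 7 of the 9 fits without 1 library. SERPINA1 had 1 read in each parental library and 0.53 to 1.7 CPM in the resistant libraries, a ratio of 16.8 (95% exact interval 5.59 to 82.9).

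**Figure D5:**
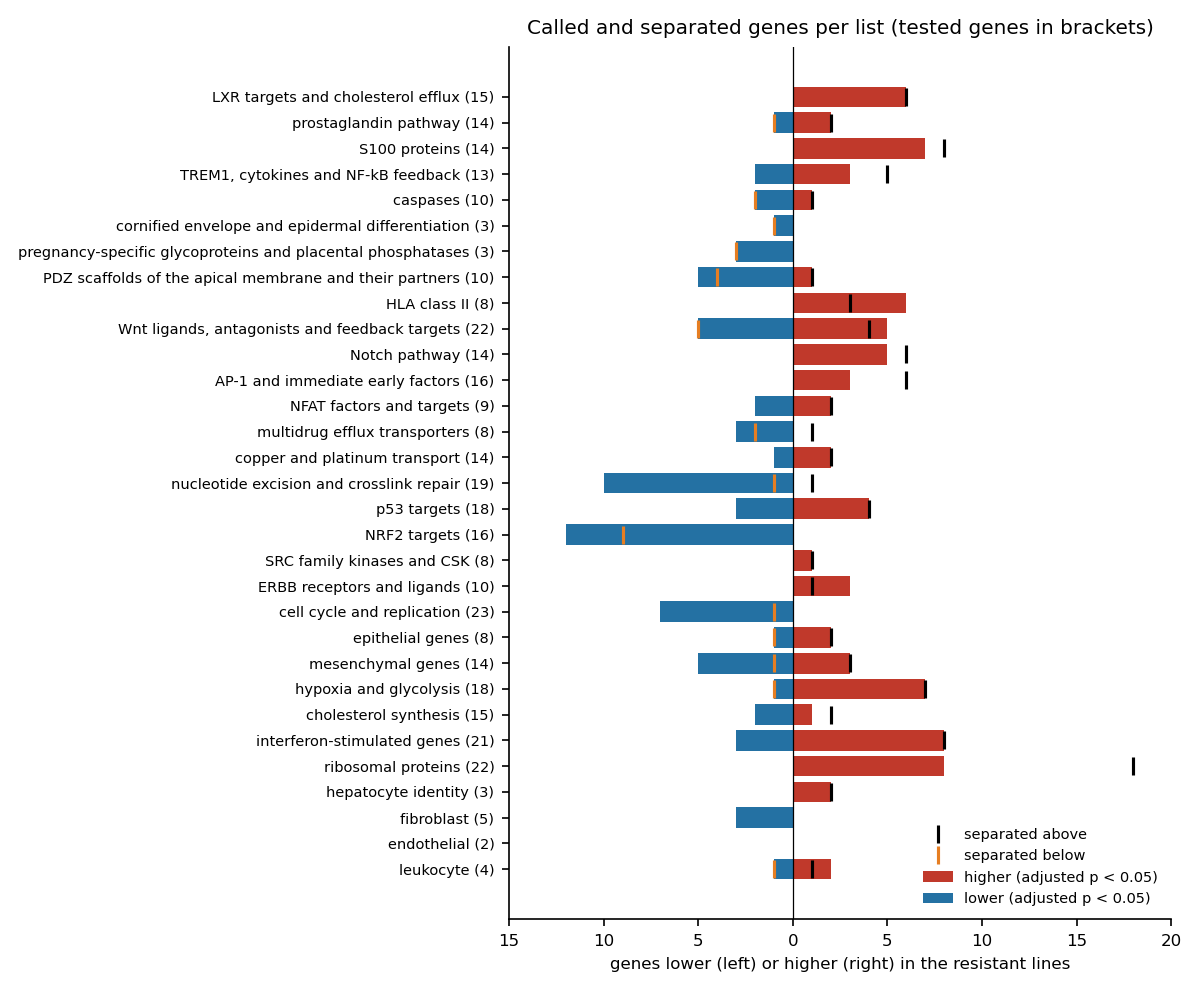
Number of genes (x axis) called higher (red, to the right) or lower (blue, to the left) in the resistant lines for each list (y axis, tested genes in brackets). Black and orange ticks mark the genes separated above and below. NRF2 targets have 12 falls and 9 genes separated below, and ribosomal proteins have 18 genes separated above but 8 called higher.

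The share of separated genes also varied over the genome. On chromosome 19, 25.7% of 833 tested genes were separated above, and on chromosome 18, 3.53% of 170, with a median GC content of 59.5% and 43.7%. After the GC correction the median log2 fold change of these chromosomes was -0.04 and -0.14. In the 250 bases before the start site the median GC content was 67.2% for genes separated above, 64.4% for genes separated below and 65.2% for all tested genes. The SP1-type box GGGCGG, searched on both strands, was in 72.4%, 64.7% and 68.8% of these, and TATAAA in 4.76%, 7.83% and 5.24%.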

How the data were processed

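RNA sequencing of poly(A) mRNA from MHCC97L, MHCC97L-Src and MHCC97L-Oxa gave 3 libraries per line. The submitters' processing notes name Trimmomatic 0.36, HISAT2 2.2.1.0 and the build GRCh38.p12. The authors deposited raw read counts per gene, which were used for all main results, and FPKM values (fragment counts scaled to gene length and library size), which the authors deposited beside them and which were used only as an alternative. Whether the counting used strand is not given in the sources used here, so overlapping and antisense genes cannot be told apart. Of the deposited annotation columns, the database cross-references gave the RefSeq accessions and NCBI gene numbers, and the product names were read as gene descriptions.

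Groups came from the labels. The separated genes, markers and gene lists were chosen with earlier results of these data known. edgeR 4.0.16 in R 4.3.3 (filterByExpr, TMM, quasi-likelihood test) fitted 3 groups over 9 libraries. The mean of both resistant lines was set against the parental line, and MHCC97L-Src against MHCC97L-Oxa. P-values were Benjamini-Hochberg adjusted over the 12232 tested genes, with 0.05 as the threshold. Each SE was taken as the log2 estimate over the root of its F statistic. CPM used plain library totals. For genes with 1 to 3 counts in a group, the ratio of summed counts has an exact conditional 95% interval. Intervals and the floor of 3 counts cover counting error only.

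GC content and length were those of the longest annotated transcript, found for 19343 of 20030 genes, 13518 by RefSeq accession and 5825 by symbol, and entered as splines with 5 degrees of freedom in offsets. Named genes were 7 markers, up to 10 largest called rises and falls among separated genes with 10 or more counts in all libraries on the higher side, the 5 most abundant called separated genes in each direction, the 3 largest differences between resistant lines in each direction, up to 4 called genes per list by size of change, and the genes nearest to the limit of separation. Alternatives were DESeq2 1.42.0, limma 3.58.1 on log2 FPKM, other scalings and filters, a replicate block and leaving out each library. Scaling by library totals and the filterByExpr set for separation were chosen after seeing the data. Some genes met the naming rule but are not reported here. Scripts were tested on simulated data. Summaries used Python 3.11.15 with pandas 2.3.3 and SciPy 1.17.1, and plots matplotlib 3.10.9.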

Additional observations from a re-analysis of the deposited data

Results flagged for a closer look

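The 11 differences between MHCC97L-Src and MHCC97L-Oxa below passed the edgeR test of the difference itself (quasi-likelihood test, Benjamini-Hochberg adjusted over all tested genes), and each is a log2 fold change of MHCC97L-Src minus MHCC97L-Oxa. Those higher in MHCC97L-Src were LOC101927503 at 4.31 (adjusted p = 0.000259), TNFRSF1B at 3.48 (adjusted p = 0.000467), CLDN4 at 2.41 (adjusted p = 0.0111), S100A9 at 1.49 (adjusted p = 0.0199) and PTGS1 at 1.32 (adjusted p = 0.00864). Those lower in MHCC97L-Src were KANK4 at -3.58 (adjusted p = 0.0438), ID2 at -3.10 (adjusted p = 0.00681), SAMD11 at -2.61 (adjusted p = 0.0108), DKK1 at -2.11 (adjusted p = 0.0374), CD74 at -1.83 (adjusted p = 0.0487) and MT1X, a metallothionein, at -1.49 (adjusted p = 0.00739). Of the 11, 2 (LOC101927503 and TNFRSF1B) were called in each of the 9 fits without 1 library and 9 were not: ID2 lost its call without MHCC97L-Src replicate 1 (adjusted p = 0.0873), and the others lost theirs without any 1 of the 6 resistant libraries, with adjusted p up to 0.355. MT1X was not separated, and the other 10 were. Groups of 3 libraries are too small for the test for single outlying libraries.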

How the results depend on the processing

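With the replicate block the calls fell from 3339 to 1079 (573 higher, 506 lower) and the differences between the resistant lines among separated genes from 36 to 11. The replicate numbers did not pair the libraries: deviations of same-numbered libraries correlated from -0.631 to 0.417 across lines. Limma on log2(FPKM + 1) gave 1192 calls (295 lower) and on log2(FPKM + 0.1) 1352 (394 lower). The GC correction with replicate block gave 1219 lower genes and 79 differences between the lines, and reversed CASP2, at 0.04 (adjusted p = 0.926). At an adjusted p under 0.01, 382 genes were called, 260 higher and 122 lower. With an absolute log2 fold change over 1 as well, 572 were higher, or 645 at an unadjusted p. A margin of 2-fold left 150 genes separated above and 77 below, and the GC correction put 1668 below. DESeq2 gave 76 differences between the lines and the GC correction 136. Leaving out 1 library gave 726 to 5074 calls (402 to 1609 higher, 324 to 3465 lower), 1735 to 2104 genes separated above, 843 to 3248 below and 5 to 123 differences between the lines. Of the calls, 32.0% were higher, against 42.1% with the GC correction, 53.1% with the block, 75.3% and 70.9% on FPKM and 58.7% without MHCC97L replicate 1. Of 121 named genes called, 121 held with DESeq2, 120 with RLE size factors, 115 with library totals, 97 of 120 with the GC correction, 81 with the block and 67 to 115 without 1 library. The cause was not tested. With 3 libraries per line and a floor of 0.165 to 0.177 CPM, changes of genes near that level were not resolved.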

Other observations

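Windows of 15 neighbouring tested genes were ranked by the median log2 fold change after the GC correction, and the lowest and the highest of the 11399 windows are given as values chosen after seeing the data, with no test. The lowest lay at chr10:45727200-49612720 (GRCh38), with a median of -1.25 after the correction and -1.15 before it. Of its 15 genes, 14 had a log2 fold change below 0, 8 were called lower as fitted, 10 after the correction, and 6 were separated below. The median before the correction was -1.48 in MHCC97L-Src, -1.05 in MHCC97L-Oxa and -0.72 over both lines without MHCC97L replicate 1. The window holds NCOA4, a receptor for ferritin degradation, MAPK8, the kinase JNK1, and ERCC6, and also the near-identical pairs ANXA8 and ANXA8L1, NPY4R and NPY4R2, and AGAP4 and AGAP9, whose reads may have been split. The highest lay at chr6:32178354-33087201, with a median of 1.08 both before and after the correction and 0.87 without MHCC97L replicate 1. Of its 15 genes 8 were called higher as fitted and 7 were separated above, among HLA class II chains and the antigen processing genes TAP1, TAP2, PSMB8 and PSMB9. After the correction 7 of them were higher and 1 was lower.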
